A study of Mus musculus with 16 samples.

Results

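Of 31239 gene rows measured in sorted mouse skin epithelial cells, the 10 genes described here encode transforming growth factor beta (TGF-beta) ligands, an activin subunit, their receptors, a storage protein and inhibitors: Tgfb1, Tgfb2, Tgfb3, Inhba, Ltbp1, Tgfbr1, Tgfbr2, Smad7, Fst and Grem1. They were chosen by name, as the probes that the scanner files assign to each symbol, with the brightest probe over all 16 arrays standing for the gene. All 10 passed the filter on dim probes, so the 10 are complete. Inhba passed it with only 6 arrays well above background. The gene set spans agonists and antagonists, and only Fst and Grem1 are secreted antagonists in the strict sense. A level is the log2 signal of the probe minus the 75th percentile of its array, so 0 is the 75th percentile of all probes and negative values lie below it. Levels of different genes come from different probes and are not set against each other.

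The study profiled hair follicle stem cells (HFSC), sorted for high CD34 and ITGA6 without Sca1, and interfollicular epidermis (IFE), sorted as ITGA6-high and Sca1-high, with 1 array in each of 16 groups. HFSC were labelled tHFSC or aHFSC, abbreviations the labels do not spell out, in each of 6 conditions. Those were young control (C57BL/6 wild type given RU486), young Col17a1cKO (Col17a1 flox/flox with K15crePR, given RU486), young aPKCcKO (aPKCλ flox/flox with K15crePR, given RU486), young hCOL17A1 transgenic, aged wild type (WT, C57BL/6) and aged hCOL17A1 transgenic mice. IFE came from young and aged WT and hCOL17A1 mice. Young mice were 12 weeks old and aged mice 25 to 26 months. The topical RU486 course, 2.5 mg per mouse for 5 days at 8 weeks of age, switches on the Cre of K15crePR, whose Krt15 promoter is active in bulge cells. Control mice were labelled wild type, with no Cre or floxed allele named. The aHFSC labels of control and Col17a1cKO mice give hair plucking and 3 days, without saying more. For the other aHFSC groups plucking is not stated, and the promoter of the transgene is not named. The labels do not say whether arrays came from separate animals or from pooled mice, so the p-values measure scatter among these arrays around an additive model, which may be technical.

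TGF-beta ligands are secreted in a latent form, held by LTBP proteins in the matrix and released by integrins, and then signal through TGFBR2 and TGFBR1 to SMAD2 and SMAD3. Activins, built from the subunits that Inhba and Inhbb encode, use related receptors and the same SMADs, and follistatin (Fst) traps them. Bone morphogenetic proteins (BMPs) signal through SMAD1, SMAD5 and SMAD9, keep bulge stem cells at rest, and are blocked by gremlin (Grem1), while TGF-beta2 from the dermal papilla is known to help stem cells of the hair germ enter growth by dampening the BMP response. SMAD7 is an inhibitory SMAD induced by the pathway and acting on its receptors.

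The sort genes matched the gates: Cd34 ran from 3.54 to 6.44 in HFSC, and Ly6a (Sca1) from 3.28 to 4.23 in IFE and from -4.85 to 1.02 in HFSC. Lhx2, Sox9 and the other bulge markers were called in HFSC against IFE for 7 of 8 genes. The arrays labelled Col17a1cKO had Col17a1 levels of 6.75 and 5.97 against 7.02 and 6.17 in controls, a difference that did not pass the test, and the files do not place the probe relative to the deleted part. Prkci, which encodes aPKC lambda, was at 3.44 and 3.28 on the aPKCcKO arrays against 4.25 and 4.37 in controls. The Prkci difference did not pass the test either, and the young hCOL17A1 aHFSC array, not labelled as a knockout, had 3.60. Slide 1 held the 8 young HFSC arrays and slide 2 the 4 aged HFSC and 4 IFE arrays, so age in HFSC cannot be told apart from slide. On both slides the HFSC states occupied alternate columns. A pair of arrays stood apart. The aged hCOL17A1 aHFSC array had 59.1% of probes well above background, against 68.8% on the aged hCOL17A1 tHFSC array and 73.8% to 79.8% on the others. The young hCOL17A1 IFE array correlated with the other IFE arrays at r = 0.919 to 0.926, against 0.975 to 0.979 among those, and its Cd34 level was 0.32 where the other IFE arrays had -6.45 to -3.86. Its Lgr5 level was -0.91, with the gene not well above background on the other 3 IFE arrays. Results that rest on these arrays are therefore also given without them.

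The probes of the 2 ligands Tgfb1 and Tgfb2 cover the same stretch of the coding sequence of the mature growth factor and are shown because their likeness bears on how far the paralogues were measured apart. The Tgfb1 probe is placed by the array design at chr7:26489877-26489936 (mm9, plus strand) and the Tgfb2 probe at chr1:188449333-188449392 (mm9, minus strand). Capitals mark bases that are identical where the 2 sequences align best without gaps, from base 20 of the Tgfb1 probe and base 1 of the Tgfb2 probe.
Tgfb1: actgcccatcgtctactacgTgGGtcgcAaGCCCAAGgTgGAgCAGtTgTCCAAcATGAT
Tgfb2: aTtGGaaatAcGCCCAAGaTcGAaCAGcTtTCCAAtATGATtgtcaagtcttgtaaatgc
Over that overlap of 41 bases, 28 were identical (68.3%). The levels of the 2 genes had a correlation of -0.16 over the 16 arrays. Tgfb1 was dim, well above background on 13 arrays, and Tgfb2 fell to -6.02 on the aged hCOL17A1 aHFSC array. The correlation therefore cannot say whether either probe also reads the other gene.

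Tgfbr2 has 2 probes that disagreed. The one not used here ends at the stop codon of the receptor, in capitals, at chr9:115999496-115999555 (mm9, minus strand).
Tgfbr2, end of coding sequence: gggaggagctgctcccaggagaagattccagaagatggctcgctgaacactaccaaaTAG
The probe used for Tgfbr2 throughout, the one with the higher mean signal, lies 2341 bases further downstream at chr9:115997155-115997214, past the stop codon, and neither probe was at background on any array. The average of the 4 tHFSC arrays matched to IFE minus the IFE mean was -1.37 with the downstream probe and 0.15 with the coding probe. The aHFSC-minus-tHFSC mean was 0.66 and -0.96. The sign of a Tgfbr2 difference thus changed with the probe.

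Grem1 and Ltbp1 had the largest differences between HFSC and IFE among the 10 genes, so the 250 bases before their start sites are shown, with Tgfbr2, which went the other way, for contrast. They are RefSeq sequences of GRCm38.p6, and 7 of the 10 genes matched an entry. Motifs searched on both strands were CAGAC (a SMAD half-site), GGCGCC (a GC-rich SMAD element), TAATTA (a homeodomain core), TGANTCA (AP-1), CATTCC (TEAD) and TATAAA, with no overlaps between matches in these windows. Capitals mark the matches. Grem1 is at chr2:113758649-113758898 (minus strand), the upstream and downstream Ltbp1 starts at chr17:75005279-75005528 and chr17:75178531-75178780 (plus strand), and Tgfbr2 at chr9:116175364-116175613 (minus strand).
Grem1: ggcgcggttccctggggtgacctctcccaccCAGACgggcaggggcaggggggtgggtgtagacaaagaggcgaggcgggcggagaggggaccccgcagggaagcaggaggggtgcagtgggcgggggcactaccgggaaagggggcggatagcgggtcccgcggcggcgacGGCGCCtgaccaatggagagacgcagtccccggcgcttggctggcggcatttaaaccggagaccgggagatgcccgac
Ltbp1, upstream start: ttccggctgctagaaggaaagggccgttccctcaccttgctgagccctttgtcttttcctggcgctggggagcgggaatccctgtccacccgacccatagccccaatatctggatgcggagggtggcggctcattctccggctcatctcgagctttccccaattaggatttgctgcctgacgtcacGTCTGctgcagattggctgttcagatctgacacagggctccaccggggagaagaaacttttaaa
Ltbp1, downstream start: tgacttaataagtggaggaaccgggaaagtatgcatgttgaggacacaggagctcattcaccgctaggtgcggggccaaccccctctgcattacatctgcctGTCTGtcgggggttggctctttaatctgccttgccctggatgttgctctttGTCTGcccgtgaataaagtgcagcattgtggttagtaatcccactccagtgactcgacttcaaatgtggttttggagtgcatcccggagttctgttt
Tgfbr2: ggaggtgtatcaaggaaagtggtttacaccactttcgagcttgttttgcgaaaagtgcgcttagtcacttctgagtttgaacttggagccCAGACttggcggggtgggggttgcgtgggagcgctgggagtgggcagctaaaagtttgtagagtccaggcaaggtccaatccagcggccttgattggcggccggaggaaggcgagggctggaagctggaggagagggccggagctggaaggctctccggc
CAGAC or its complement occurred in all 4 windows, 2 times before the downstream Ltbp1 start and once in each of the others, and in 42.2% of the 32851 windows of that length in the table. GGCGCC occurred in the Grem1 window, at -78 from the start, and in 9.6% of all windows. None of the other motifs occurred in the 4 windows, where the shares over all windows were 4.8% for TAATTA, 6.7% for TGANTCA, 12.6% for CATTCC and 12.4% for TATAAA. The Grem1 window was 72% G or C, against 56.8% and 50.8% for the Ltbp1 windows and 58.4% for Tgfbr2. A match describes the letters and is not a binding site.

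The first question was how the stem cells differ from IFE. Grem1, Ltbp1, Fst and Tgfb3 were higher in both HFSC states, and Tgfbr2 was lower in tHFSC. In tHFSC against IFE, 5 of the 10 genes passed the test, 4 higher and 1 lower, where 6.5% of all 31239 gene rows passed, 2.13% higher and 4.37% lower. In aHFSC against IFE 4 passed, all higher, where 4.34% of all rows passed, 1.65% higher and 2.69% lower. The 4 pairs set young control HFSC against young WT IFE, and young hCOL17A1, aged WT and aged hCOL17A1 HFSC against IFE of the same label. In the first, the HFSC mice alone were labelled as given RU486, and both young pairs set slide 1 against slide 2. The tests came from 1 limma model of all 16 arrays with Benjamini-Hochberg adjustment over all rows. The share of calls that were higher in tHFSC was 32.8% with the scaling used here, 47.1% with quantile normalization and 27.2% with normexp correction, and for aHFSC 38%, 50% and 21.4%. The median difference was 1.19 over the 10 genes in tHFSC against IFE and -0.05 over all rows, and 0.33 and -0.14 in aHFSC. In such bulk samples, fewer cells of a type and less RNA per cell cannot be told apart.

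**Figure D1:**
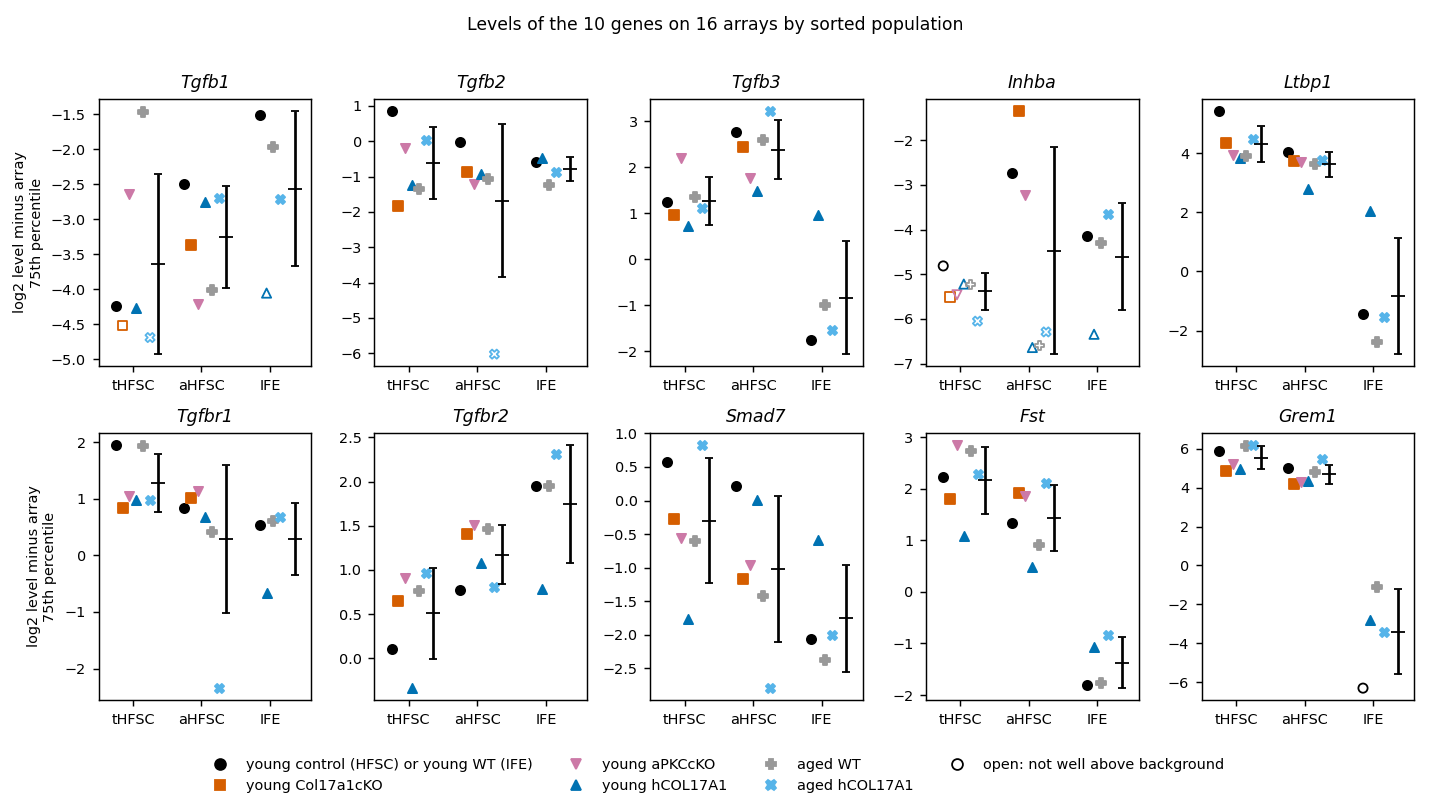
Log2 level (signal minus the array's 75th percentile, vertical axis) of each gene on the 6 tHFSC, 6 aHFSC and 4 IFE arrays, one symbol per condition, with the mean and SD over the arrays of a population beside the points. Open symbols mark a probe not well above background. Grem1, Ltbp1 and Fst were higher on all 12 HFSC arrays than on any IFE array, and Inhba was mostly open. The share of all gene rows that separate the populations in this way was not counted.

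Grem1, the gremlin gene, whose product binds and blocks BMPs, ran from 4.86 to 6.2 in tHFSC, with a median of 5.56, and from 4.19 to 5.45 in aHFSC, with a median of 4.58. IFE levels were -6.31 in young WT, where the probe was not well above background, -2.78 in young hCOL17A1, -1.09 in aged WT and -3.42 in aged hCOL17A1. No HFSC array came near an IFE array, and the IFE arrays spread over more than 5 log2 units. The fitted difference was 9.18 ± 0.69 (SE) in tHFSC, 582-fold (adjusted p = 0.000224, higher in 4 of 4 pairs), and 8.32 ± 0.69 in aHFSC, 318-fold (adjusted p = 0.000466, 4 of 4 pairs). Because 1 of the 4 IFE arrays was at background, these folds are partly measured against background. Their fitted size also moved when an IFE array was left out. Without the young WT or the aged hCOL17A1 IFE array the differences were 7.72 and 6.85, and without the young hCOL17A1 or the aged WT one 10.65 and 9.78. Without the pair of arrays that stood apart they were 10.64 ± 0.18 and 9.75 ± 0.19. All passed the threshold, but each such fit predicts the missing IFE group additively from the remaining ones, and its SE holds no IFE scatter. The measured IFE mean of Grem1 was -3.61 without the young hCOL17A1 array and -3.40 with all 4 arrays. Within slide 2 alone the values were 9.56 ± 1.17 (adjusted p = 0.00672) and 8.53 ± 1.17 (adjusted p = 0.0113).

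Fst, the activin trap, ran from 1.08 to 2.85 in tHFSC (median 2.26) and from 0.47 to 2.10 in aHFSC (median 1.60). Its IFE levels were -1.81 in young WT, -1.06 in young hCOL17A1, -1.77 in aged WT and -0.84 in aged hCOL17A1. The lowest HFSC array, young hCOL17A1 aHFSC, was still above the highest IFE array. The difference was 3.39 ± 0.30, 10.4-fold, in tHFSC (adjusted p = 0.00054) and 2.65 ± 0.30, 6.27-fold, in aHFSC (adjusted p = 0.00207), each in 4 of 4 pairs. The IFE mean was -1.37 ± 0.49 (SD, n = 4).

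Ltbp1, which holds latent TGF-beta in the matrix, ran from 3.83 to 5.42 in tHFSC (median 4.12) and from 2.79 to 4.04 in aHFSC (median 3.72). In IFE it was -1.45 in young WT, -2.37 in aged WT and -1.56 in aged hCOL17A1, and 2.05 in young hCOL17A1. That last array, one of the pair that stood apart, lay closest to the HFSC range without entering it. The difference was 5.16 ± 0.38, 35.9-fold, in tHFSC (adjusted p = 0.000191) and 4.47 ± 0.38, 22.1-fold, in aHFSC (adjusted p = 0.000506), in 4 of 4 pairs each. Within slide 2 it was 5.02 ± 1.07 (adjusted p = 0.0523) and 4.54 ± 1.07 (adjusted p = 0.085). Without the pair of arrays that stood apart it was 5.84 ± 0.28 (adjusted p = 0.000592) and 5.14 ± 0.29 (adjusted p = 0.00214). That fit predicts the young hCOL17A1 IFE group additively from the remaining IFE arrays, and its smaller SE holds no IFE scatter. A second Ltbp1 probe, 343585 bases upstream in mm9 and assigned to another transcript record, gave a smaller mean difference between the matched tHFSC arrays and IFE, 1.90 against 5.24.

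Tgfb3 was the TGF-beta ligand that separated the populations. It ran from 0.72 to 2.21 in tHFSC (median 1.18) and from 1.49 to 3.22 in aHFSC (median 2.51). IFE levels were -1.75 in young WT, -0.99 in aged WT, -1.53 in aged hCOL17A1 and 0.95 in young hCOL17A1, so that single IFE array overlapped the tHFSC range. The order was aHFSC, tHFSC, IFE, with the HFSC states overlapping. In aHFSC the difference from IFE was 3.19 ± 0.51, 9.15-fold (adjusted p = 0.0114, 4 of 4 pairs). In tHFSC it was 2.08 ± 0.51, 4.24-fold (adjusted p = 0.0481, 3 of 4 pairs), a call lost in 20 of 29 alternatives. Without the pair of arrays that stood apart the tHFSC difference was 2.84 ± 0.42 (adjusted p = 0.0201) and the aHFSC difference 3.75 ± 0.45 (adjusted p = 0.0165). Without the young WT or the aged hCOL17A1 IFE array the tHFSC difference was 1.27 ± 0.46 (adjusted p = 0.164 and 0.165) and the aHFSC difference 2.38 ± 0.46 (adjusted p = 0.0329). Without the young hCOL17A1 or the aged WT one the tHFSC and aHFSC differences were 2.89 and 4.0. The fits short of an IFE array predict the missing group additively from the remaining ones, and their SEs hold no IFE scatter. Within slide 2 the tHFSC value was 2.06 ± 0.72 (adjusted p = 0.218) and the aHFSC value 3.73 ± 0.72 (adjusted p = 0.0417).

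The other ligands did not pass the test against IFE. Tgfb2 ran from -1.83 to 0.86 in tHFSC and from -6.02 to -0.04 in aHFSC, with medians of -0.71 and -1.0. Its 4 IFE levels, -0.60 in young WT, -0.48 in young hCOL17A1, -1.25 in aged WT and -0.86 in aged hCOL17A1, lay inside the HFSC range. Tgfb1 was dim, between -4.69 and -1.47 in HFSC and between -4.05 and -1.51 in IFE, and was well above background on 13 arrays. The highest Tgfb1 level of all was on the aged WT tHFSC array. The fitted tHFSC-minus-IFE difference was -0.96 ± 0.75 for Tgfb1 and 0.12 ± 0.94 for Tgfb2 (adjusted p = 0.537 and 0.966), and the standard errors leave room for differences of 1 log2 unit in either gene.

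Inhba, the activin A subunit, was well above background on none of the 6 tHFSC arrays, where it read -6.05 to -4.81. Among aHFSC it was well above background on 3 arrays, at -2.73 in young control, -1.35 in young Col17a1cKO and -3.22 in young aPKCcKO, and not on the young hCOL17A1, aged WT and aged hCOL17A1 arrays, at -6.64, -6.59 and -6.29. Those 3 arrays are the aHFSC of the conditions given RU486. In IFE it was -4.14 in young WT, -4.29 in aged WT and -3.65 in aged hCOL17A1, and not well above background, at -6.34, in young hCOL17A1. The aHFSC mean was -4.47 and the tHFSC mean -5.38, both including readings not well above background. The difference was positive in 3 of 6 pairs, and the fitted value did not pass the test (adjusted p = 0.673).

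Among receptors, Tgfbr2, which binds ligand first, ran from -0.34 to 0.97 in tHFSC (median 0.71) and from 0.78 to 1.51 in aHFSC (median 1.25). IFE levels were 1.95 in young WT, 1.95 in aged WT, 2.31 in aged hCOL17A1 and 0.78 in young hCOL17A1. Apart from that last array, IFE lay above all 12 HFSC arrays. The tHFSC difference was -1.38 ± 0.30, 2.59-fold lower (adjusted p = 0.0305, lower in 4 of 4 pairs), lost in 16 of 29 alternatives. It was -0.70 ± 0.39 (adjusted p = 0.363) when probes of a gene were averaged, -0.88 ± 0.47 within slide 2 (adjusted p = 0.459), and -1.71 ± 0.23 without the pair of arrays that stood apart (adjusted p = 0.0164). Without the young WT or the aged hCOL17A1 IFE array it was -0.99 ± 0.31 (adjusted p = 0.109). The fits short of an IFE array predict the missing group additively, and their SEs hold no IFE scatter. The aHFSC difference, -0.71 ± 0.30, did not pass (adjusted p = 0.26).

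Tgfbr1, the signalling partner, ran from 0.83 to 1.95 in tHFSC (median 1.01), from -2.34 to 1.13 in aHFSC (median 0.75), and was 0.53 in young WT, -0.67 in young hCOL17A1, 0.61 in aged WT and 0.67 in aged hCOL17A1 IFE. All 4 tHFSC arrays matched to IFE were above the IFE arrays, by 0.89 ± 0.53 in the fit (adjusted p = 0.396). Its 4 probes gave matched tHFSC-minus-IFE means of 1.17, -0.18, 1.68 and 1.42. Smad7 ran from -1.77 to 0.83 in tHFSC (median -0.42) and from -2.80 to 0.22 in aHFSC (median -1.06). Its IFE levels were -2.06, -2.37 and -2.01 in young WT, aged WT and aged hCOL17A1, and -0.59 in young hCOL17A1. The tHFSC difference for this inhibitory SMAD was 1.49 ± 0.66 (adjusted p = 0.244), positive in 3 of 4 pairs.

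One fibroblast marker, Col1a2, moved with the same contrast. The summed linear level of 7 fibroblast markers was 1.96 to 8.10 in tHFSC, 0.77 to 1.71 in aHFSC and 0.443 to 0.712 in IFE, in units of the array's 75th percentile. Lum and Dpt, which mark dermal fibroblasts, were not well above background on any array, and Pdgfra on none of the aHFSC or IFE arrays. Col1a2, a collagen gene singled out after its values were seen, had medians of 2.48, 0.10 and -1.89 in tHFSC, aHFSC and IFE and was called in all 3 comparisons, at 4.41 ± 0.29 in tHFSC against IFE (adjusted p = 0.00012) and -2.20 ± 0.24 in aHFSC against tHFSC (adjusted p = 0.0324). Of 4 dermal papilla markers, Alpl and Sox2 were not well above background on any tHFSC or IFE array, and the summed level was 0.103 to 0.588 in HFSC and 0.483 to 2.91 in IFE. The other measured fibroblast markers were not called: Col3a1 had medians of -2.53, -2.64 and -2.94, Dcn -3.98, -4.36 and -4.11, and Col1a1 -4.69, -4.54 and -5.84. Of 4 T cell markers, Thy1, which other cells also express, was higher in IFE (3.67 to 4.79 against -2.96 to 1.79 in HFSC), while Cd3e had medians of -0.18, -0.52 and -0.33 in tHFSC, aHFSC and IFE. The part of these markers in the results for the 10 genes was not tested.

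**Figure D2:**
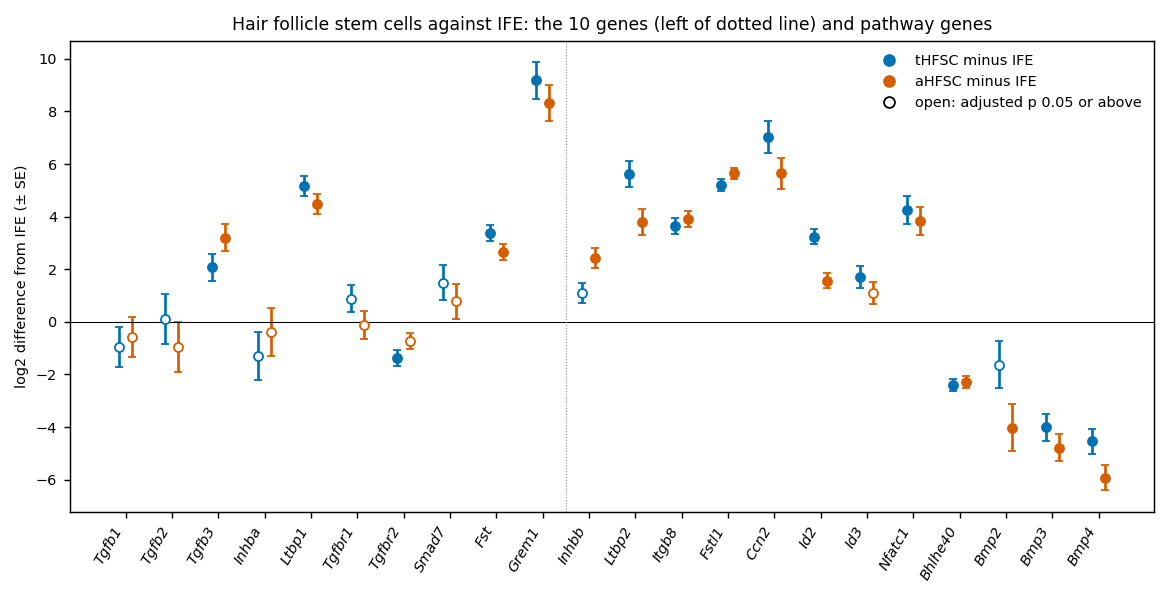
Fitted log2 difference from IFE, with SE, for tHFSC (blue) and aHFSC (orange), for the 10 genes left of the dotted line and 12 further pathway genes right of it, with open symbols where the adjusted p was 0.05 or above. Grem1 stands highest at 9.18 and 8.32, and Bmp4 lowest at -4.55 and -5.92.

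Of 95 pathway genes listed, 88 were measured, 78 of them besides the 10 described above. In tHFSC against IFE 9 of the 78 were called higher and 3 lower, with a median of 0.24. Over all rows 2.13% were called higher and 4.37% lower. In aHFSC against IFE 8 of the 78 were higher and 6 lower, with a median of 0.16, where the shares over all rows were 1.65% and 2.69%. Among storage and activation genes, 3 of 10 measured were higher in each state, Ltbp1 itself, its relative Ltbp2 (5.61 ± 0.49 in tHFSC and 3.80 ± 0.49 in aHFSC) and Itgb8 (3.63 ± 0.30 and 3.92 ± 0.30), whose integrin releases latent TGF-beta. Of 16 secreted antagonists measured, 4 were higher in each state, Fst, Grem1 and the follistatin-like Fstl1 (5.22 ± 0.22 and 5.64 ± 0.22) in both. The BMP antagonist Nog was 1.68 ± 0.44 above IFE in tHFSC and did not pass (adjusted p = 0.0598). Of 10 BMP ligands measured, 4 had a positive and 6 a negative difference in each state. None was called higher. Of those called lower, Bmp4 (-4.55 ± 0.48 and -5.92 ± 0.48) and Bmp3 (-4.01 ± 0.51 and -4.79 ± 0.51) were lower in both states, and Bmp2 (-4.02 ± 0.89) in aHFSC. Inhbb, the activin B subunit, was higher in aHFSC (2.44 ± 0.39, adjusted p = 0.0113).

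The TGF-beta target genes were mixed, with 6 positive and 6 negative differences in tHFSC against IFE and 8 and 4 in aHFSC. Of 12 TGF-beta target genes measured, Ccn2, which encodes a matrix protein also induced by YAP, was higher (7.04 ± 0.60 in tHFSC, 5.65 ± 0.60 in aHFSC), Bhlhe40 lower in both states (-2.41 ± 0.23 and -2.30 ± 0.23), and Tgfbi lower in aHFSC (-1.11 ± 0.22). Ccn2 ran from 5.10 to 7.85 in HFSC and reached 3.01 on 1 IFE array, with a median of -0.49 in IFE. Of 8 BMP target genes measured, 7 had a positive difference in tHFSC and 8 in aHFSC, where 3 and 2 passed the test, all of them higher. The shares of all rows with a positive difference were 46.5% in tHFSC and 38.7% in aHFSC, and those called higher were 2.13% and 1.65%. Nfatc1, a transcription factor of resting bulge cells, differed by 4.26 ± 0.54 and 3.85 ± 0.54, and Id2, a helix-loop-helix inhibitor, by 3.24 ± 0.29 and 1.56 ± 0.29. Nfatc1 is also one of the 8 bulge markers, and the part of cell type in its difference was not tested. Id3 was higher in tHFSC (1.70 ± 0.42, adjusted p = 0.0485). No intracellular inhibitor of the 8 measured was called in either state.

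The second comparison set aHFSC against tHFSC across the 6 conditions. None of the 10 genes passed the limma test, where 0.554% of all rows passed, and 3 had an unadjusted p under 0.05 (Fst, Tgfbr2 and Tgfb3), as did 3945 of the 31239 rows. Their median difference was -0.71, against -0.09 over all rows. Grem1 and Ltbp1 were lower in aHFSC in all 6 pairs. Over all rows 39.6% of fitted differences were positive. The share of all rows that were lower in all 6 pairs was not counted, so the pair counts of these genes have no background beside them. The Grem1 pair differences were -0.91 in young control, -0.67 in Col17a1cKO, -0.94 in aPKCcKO, -0.62 in young hCOL17A1, -1.32 in aged WT and -0.75 in aged hCOL17A1, a narrow band. In the 16-array fit the value was -0.87 ± 0.59 (adjusted p = 0.588), where the wide IFE spread of Grem1 enters the error. With the 12 HFSC arrays alone the same difference passed (adjusted p = 0.0386). It also passed when any 1 of the 4 IFE arrays was left out (adjusted p = 0.0448 to 0.0468). Those fits hold no IFE scatter and rest on the same HFSC arrays, so they are not separate support. Over all alternatives the adjusted p ran from 0.0386 to 0.857. An exact two-sided sign-flip permutation test over the 6 pairs gave p = 0.03125, the smallest it can give with 6 pairs.

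Ltbp1 pair differences were -1.38 in young control, -0.58 in Col17a1cKO, -0.23 in aPKCcKO, -1.04 in young hCOL17A1, -0.26 in aged WT and -0.70 in aged hCOL17A1. All are negative, with a fitted value of -0.70 ± 0.32 (adjusted p = 0.42) and the same exact p of 0.03125. The levels of both genes still overlapped between the states, and the exact p-values of the 10 genes were not adjusted. Fst was lower in 5 of 6 pairs, by -0.74 ± 0.25 in the fit (adjusted p = 0.275), with the Col17a1cKO pair at 0.11. In the same comparison Col1a2 was lower in aHFSC, the only fibroblast marker called, and its part in the Grem1, Ltbp1 and Fst differences was not tested.

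**Figure D3:**
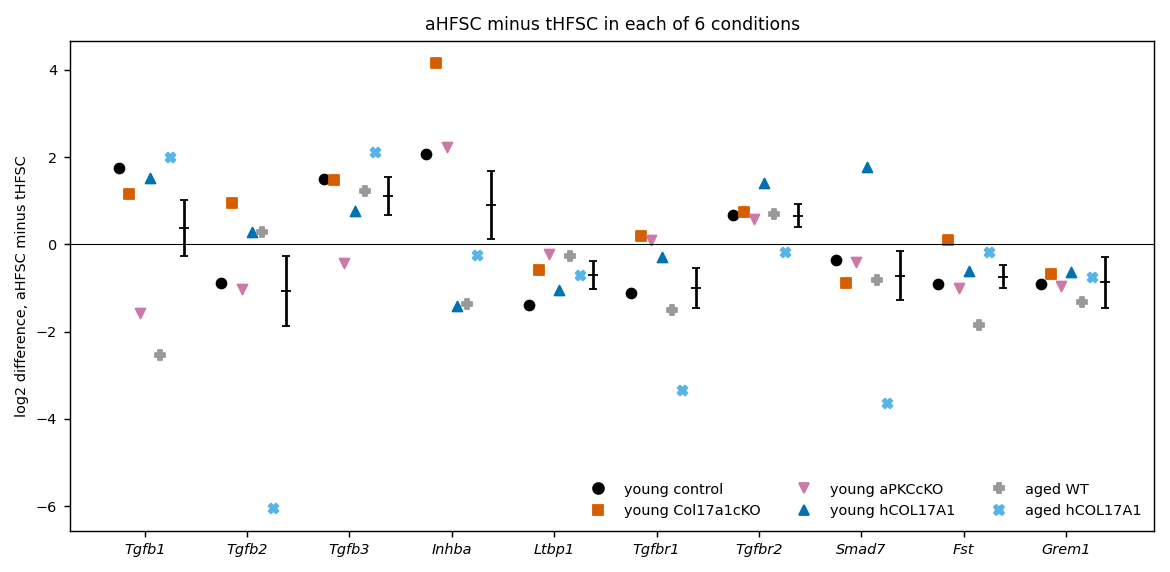
Difference of log2 levels, aHFSC minus tHFSC, in each of 6 conditions (symbols) for the 10 genes, with the fitted difference and SE as a bar at the right of each gene. Grem1 and Ltbp1 lie below 0 in all 6 conditions, and the aged hCOL17A1 pair lies lowest for Tgfb2, Tgfbr1 and Smad7.

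Tgfb3 was higher in aHFSC in 5 of 6 pairs. The differences were 1.51 in young control, 1.48 in Col17a1cKO, -0.43 in aPKCcKO, 0.77 in young hCOL17A1, 1.23 in aged WT and 2.11 in aged hCOL17A1, with a fitted 1.11 ± 0.44 (adjusted p = 0.34). The aPKCcKO pair alone went down. Tgfbr2 was also higher in 5 of 6 pairs, between 0.59 and 1.42, with -0.16 in aged hCOL17A1, and 0.66 ± 0.26 in the fit (adjusted p = 0.333). Its coding probe had a mean of the opposite sign, as given above.

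Tgfb2, Tgfbr1 and Smad7 showed how far a single array can carry a mean. In the aged hCOL17A1 pair their differences were -6.05, -3.33 and -3.63, on the aHFSC array with the lowest share of probes above background. The other 5 pairs ran from -1.02 to 0.96 for Tgfb2, from -1.51 to 0.18 for Tgfbr1, and from -0.89 to 1.78 for Smad7. Fitted values over all arrays were -1.07 ± 0.80, -1.0 ± 0.45 and -0.72 ± 0.56, and without the pair of arrays that stood apart -0.07, -0.53 and -0.13. None passed the test in either fit.

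Tgfb1 differences ran from -2.54 to 2.0 with 4 of 6 positive. In tHFSC Inhba stayed at background throughout, so its pairs give no measured difference. It was well above background in aHFSC of young control, Col17a1cKO and aPKCcKO, and on neither array of the other 3 conditions. Of the other pathway genes, only Id2 was called in this comparison (-1.68 ± 0.25, adjusted p = 0.0343, lower in 6 of 6 pairs). The storage gene Ltbp2 had a difference of -1.81 ± 0.42 (adjusted p = 0.115), negative in 6 of 6 pairs, without passing. Inhbb was higher in 6 of 6 pairs by 1.34 ± 0.33 (adjusted p = 0.14).

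The shift between the states was tested for a difference between aged and young conditions. None of the 10 genes passed, and neither did any of the 31239 rows (0%), with 1942 rows and 1 of the 10 genes, Tgfbr1, under an unadjusted p of 0.05. For Tgfbr1 the aged shift was 2.13 lower than the young one (-2.13 ± 0.67, adjusted p = 0.739). Its sign changed in 2 of 26 alternatives. With only probes held in all scanner files, where another Tgfbr1 probe stands for the gene, the value was 0.13. The young control tHFSC value of the probe used was filled from the deposited table. The aged Tgfbr1 pairs were -1.51 and -3.33, the second with the aged hCOL17A1 aHFSC array. For Grem1 the aged-minus-young difference was -0.25 ± 1.32.

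Genotype comparisons had 2 pairs each, a tHFSC and an aHFSC pair, and no row passed the limma test in any of them (0%). Unadjusted p-values under 0.05 were met by 1267 rows for Col17a1cKO against control, 1077 for aPKCcKO against control, 1334 for Col17a1cKO against aPKCcKO, 2132 for young hCOL17A1 against control and 3772 for aged hCOL17A1 against aged WT. Of the 10 genes none met it for the knockouts, 2 for young hCOL17A1 (Ltbp1 and Fst) and 1 for aged hCOL17A1 (Tgfbr1). All values below are therefore descriptions of single arrays.

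Both knockouts share the 2 control arrays, and several genes stood on the same side of them. Smad7 was -0.28 and -1.17 on the Col17a1cKO tHFSC and aHFSC arrays and -0.56 and -0.96 on the aPKCcKO arrays, against 0.57 and 0.22 in controls. The fitted differences were -1.12 ± 0.98 and -1.15 ± 0.98, and both control arrays lay above all 4 knockout arrays. Grem1 differences were -1.05 and -0.80 for the Col17a1cKO tHFSC and aHFSC arrays and -0.69 and -0.73 for aPKCcKO. Ltbp1 differences were -1.10 and -0.30, and -1.50 and -0.34. For Tgfb2 they were -2.68 and -0.83, and -1.04 and -1.17. Tgfbr2 was the gene with positive differences throughout, 0.54 and 0.63 in Col17a1cKO and 0.80 and 0.73 in aPKCcKO. These values come from the downstream probe alone, with fitted differences of 0.59 and 0.77. With the Tgfbr2 probes averaged, the fitted differences were 0.04 in Col17a1cKO and 0.18 in aPKCcKO. Set directly against each other, the knockouts differed for the 10 genes by a median of -0.20, with Inhba at 0.91 ± 1.35 the widest, none of them past the test. Inhba was not well above background on the tHFSC array of either knockout, at -5.51 and -5.46, so its value rests partly on background readings.

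**Figure D4:**
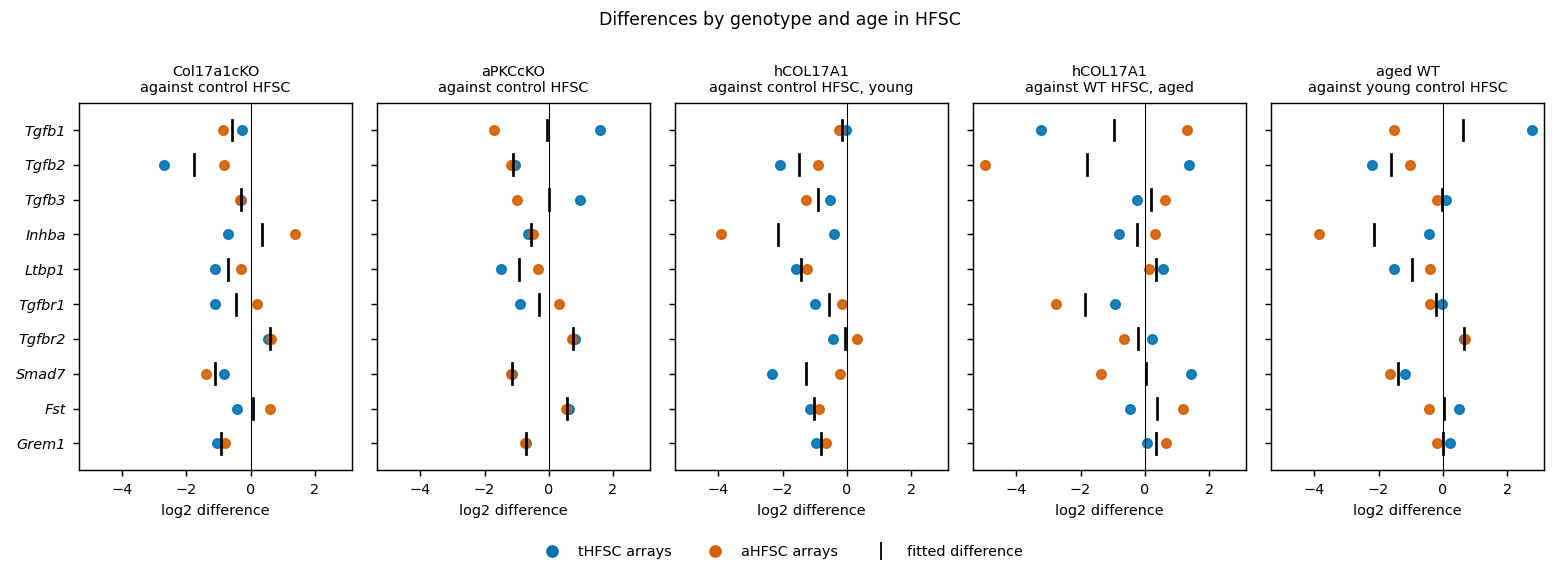
Difference of log2 levels (horizontal axes) for 5 comparisons in HFSC, with the tHFSC arrays in blue, the aHFSC arrays in orange and the fitted difference as a black tick. In young hCOL17A1 against control every tick lies left of 0, while in aged hCOL17A1 against aged WT they lie on both sides.

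In young hCOL17A1 mice against young controls, which also differ in the RU486 course, all 10 fitted differences were negative. Their median was -0.95, where the median over all rows was 0.01 and 50.8% of rows were positive. Cell type markers moved with them: all 8 bulge markers had negative differences (median -0.59), epidermis markers had a median of 0.99, and the summed bulge level was the lowest of each state on these arrays, 237 in tHFSC and 204 in aHFSC. Their part in the result was not tested. Ltbp1 was 3.83 and 2.79 on the hCOL17A1 tHFSC and aHFSC arrays against 5.42 and 4.04 in controls, -1.42 ± 0.56 in the fit (adjusted p = 0.691 by limma). Fst was 1.08 and 0.47 against 2.24 and 1.33, -1.01 ± 0.44 (adjusted p = 0.727 by limma). The hCOL17A1 arrays held the lowest Fst level of each HFSC state. Smad7 was -1.77 against 0.57 in tHFSC and 0.01 against 0.22 in aHFSC. Inhba was -6.64 and not well above background on the hCOL17A1 aHFSC array, against -2.73 in the control. Only Tgfbr2 had pairs of opposite sign, -0.45 in tHFSC and 0.31 in aHFSC. The Col17a1cKO, aPKCcKO and hCOL17A1 comparisons all rest on the same 2 young control arrays, and those held the highest Ltbp1 level of their state in both states, 5.42 and 4.04.

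The aged hCOL17A1 arrays against aged WT lay on both sides of 0. Fitted differences were positive for 5 of the 10 genes with a median of -0.10. Tgfbr1 was 0.98 and -2.34 against 1.92 and 0.42, -1.85 ± 0.78 (adjusted p = 0.397 by limma), and the larger pair includes the array with the fewest probes above background. Fst was 2.28 and 2.10 against 2.74 and 0.91, and Grem1 6.2 and 5.45 against 6.13 and 4.81, where the aged hCOL17A1 arrays held the highest Grem1 level of each state. Among other pathway genes, Fstl3, a follistatin relative, was 2.02 higher (adjusted p = 0.198, both pairs) without passing.

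For age in HFSC, aged WT was set against young control, and slide and RU486 differ with age there. None of the 31239 rows passed (0%), with 1582 under an unadjusted p of 0.05 and none of the 10 genes among them. Grem1 had pair differences of 0.22 and -0.19 and a fitted 0.02 ± 1.02. Smad7 was -0.60 and -1.42 in aged WT tHFSC and aHFSC against 0.57 and 0.22, a fitted -1.40 ± 0.98 (adjusted p = 0.999). Inhba in aHFSC was -6.59, not well above background, against -2.73. Ltbp1 differed by -1.53 and -0.40, and Tgfbr2 by 0.65 and 0.68. The standard errors of 0.44 to 1.39 across the 10 genes leave room for differences of about 1 log2 unit or more.

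In IFE, age and transgene were each compared over 2 pairs, and no row passed in either (0%). Unadjusted p-values under 0.05 were met by 1982 rows for age and 1688 for the transgene, Ltbp1 among them in both. Ltbp1 was -2.37 and -1.56 in aged against -1.45 and 2.05 in young IFE, -2.26 ± 0.56 (adjusted p = 0.749 by limma), and the hCOL17A1-minus-WT difference was 2.16 ± 0.56 (adjusted p = 0.848 by limma). Both rest on the young hCOL17A1 IFE array: the pair without it was -0.92 for age and 0.82 for the transgene. Of 3 hair germ markers, Cdh3 reached 5.74 in IFE against an IFE median of 4.09, Lgr5 was above background on that array alone, and Lef1 stayed between -4.10 and -3.49. The part of such markers was not tested. Grem1 was 5.22 higher in aged than young WT IFE, where the young array was at background, and 0.64 lower in aged than young hCOL17A1 IFE. Leaving out the young hCOL17A1 IFE array, or the aged one, brought the age difference of Grem1 to 5.22, a value that then rests on a single WT pair. Without either WT array the Ltbp1 age difference was -3.61. Without either aged array the transgene differences were 3.50 for Ltbp1 and 3.53 for Grem1, again from 1 pair each. All of these passed the threshold, but in fits whose SE holds no IFE scatter, so the calls do not measure spread among IFE arrays. Fst was 0.75 and 0.93 higher in hCOL17A1 than in WT IFE at the young and the aged age (fitted 0.84 ± 0.44, adjusted p = 0.848).

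The genes whose pattern was most like each member were sought among 19060 rows by Pearson correlation over the 16 arrays, which share 2 slides and fall into HFSC and IFE. For Grem1 they were Ptn (r = 0.979), Sema3e (0.968) and Timp2 (0.967), with 0.847, 0.842 and 0.883 over the 12 HFSC arrays alone. For Fst they were Thsd1 (0.967), Ptn (0.962) and Cgnl1 (0.961), with 0.846, 0.839 and 0.940 within HFSC, so Ptn, a heparin-binding growth factor, appears for both antagonists. Ltbp1 was nearest to Calml3 (0.974), Lgr5 (0.969), a marker of the lower bulge and hair germ, and Ank (0.965). Within HFSC these dropped to 0.576, 0.209 and 0.144, so the likeness lay in the contrast with IFE. Tgfb3 was nearest to Nck2 (0.954), Cbx6 (0.945) and Gpr153 (0.934), with 0.885, 0.813 and 0.718 within HFSC.

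Tgfb2 was nearest to Olfr1394 (0.924), Slc12a3 (0.915) and Ciapin1 (0.914), and Tgfbr1 to Tbx10 (0.899), Cyp2c37 (0.894) and Tlr7 (0.888). Without the aged hCOL17A1 aHFSC array these were 0.727, 0.630 and 0.583 for Tgfb2 and 0.795, 0.675 and 0.670 for Tgfbr1, so they leaned on the array where both genes were lowest. Smad7 was nearest to Papolg (0.907), Kif1c (0.890) and Slc22a17 (0.881), Tgfbr2 to Arhgap8 (0.815), Rps26 (0.810) and Gm6579 (0.794), and Tgfb1 to Hexdc (0.844), Dock4 (0.806) and Lrrc20 (0.795). Among the 10 genes themselves, Grem1 correlated with Fst at 0.910 and with Ltbp1 at 0.885 over 16 arrays, and at 0.600 and 0.620 over the 12 HFSC arrays.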

How the data were processed

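The authors deposited Agilent Feature Extraction output, in which the processed signal is a background-subtracted intensity per the file headers, and a table of log2 values. Those equal log2 of the processed signal minus a constant per array, within 0.01. Per the file headers the software was Feature Extraction 11.5.1.1 and the probe design used mm9. Here log2 of the processed signal minus each array's 75th percentile was computed without control or outlier spots. Of 55681 probes, 49792 well above background on at least 2 arrays were kept, and 49039 of them had a value on all 16. The brightest probe stood for each gene name. The young control tHFSC file ends early, so 9264 probes, Grem1 and Tgfbr1 among them, were filled from the deposited table for that array, without flags. No spot was saturated.

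One limma 3.58.1 fit (R 4.3.3; lmFit, eBayes with a trend, two-sided, Benjamini-Hochberg, threshold 0.05) held 6 HFSC condition terms, a common aHFSC shift and IFE terms for level, age and transgene (6 residual degrees of freedom, 5 with the state-by-age term). The number of arrays limits the precision. The 10 members, the pathway and marker lists and the rule for named genes (members, sort and targeted genes, list genes at the extremes, 3 nearest genes) were chosen with earlier results of these data known. Probe positions are the design's, without an annotation of that build.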

Additional observations from a re-analysis of the deposited data

Results flagged for a closer look

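In 3 cases the pairs of one group all moved one way and those of the other the opposite way under a like contrast, and none of these differences was tested. Ltbp1 was lower in young hCOL17A1 than in control HFSC in both pairs, a mean of -1.42, and higher in aged hCOL17A1 than in aged WT HFSC in both pairs, a mean of 0.35. With the probes of a gene averaged, the aged Ltbp1 difference was -0.08. Grem1 differed by -0.80 in young and 0.36 in aged HFSC. Bulge marker sums were the lowest of each state on the young hCOL17A1 arrays (237 and 204) and the highest on the aged hCOL17A1 arrays (458 and 337), and their part was not tested. The young comparison lies on slide 1 and the aged one on slide 2, and the young controls alone had RU486. Tgfbr1 was lower in aged WT than in young control HFSC in both pairs, a mean of -0.22, and higher in aged than young IFE in both pairs, a mean of 0.71. Both signs turned with another Tgfbr1 probe: with only probes held in all scanner files the values were 0.30 in HFSC and -1.09 in IFE, and with probes averaged 0.02 and -0.07. The young control tHFSC value of the probe used was filled from the deposited table.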

How the results depend on the processing

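All 9 member differences called against IFE kept their sign in every alternative run (26 alternatives for Grem1, 29 for the others). Fst and Grem1 also kept their calls in all of them, Ltbp1 lost its call in each state within slide 2 only, and Tgfb3 in aHFSC lost it only with the arrays of the comparison alone (adjusted p = 0.0618). No alternative used the Tgfbr2 coding probe alone. Its matched tHFSC-minus-IFE mean was 0.15, against -1.37 with the probe used, so the Tgfbr2 sign depends on the probe. The count of members called in tHFSC against IFE, 5, was 3 with normexp correction (9 genes measured, without Grem1), 3 with only the arrays of the comparison, 3 with unpaired groups and 2 within slide 2. Leaving out 1 array at a time gave 3 to 5, with the calls of Tgfb3 and Tgfbr2 the ones lost. In aHFSC against tHFSC the count of 0 became 1 (Grem1) with only the arrays of the comparison, and 0 to 1 with 1 array left out. In aged against young IFE it became 1 without the pair of arrays that stood apart, and 0 to 1 with 1 array left out, and for hCOL17A1 against WT IFE 0 to 2. A fit short of 1 IFE array leaves 3 IFE arrays for 3 terms, so IFE is then assumed to vary like HFSC. Its SE holds no IFE scatter, and in HFSC against IFE the missing IFE group is predicted additively from the remaining ones. Of 111 member differences not called, 61 changed sign in some alternative and 5 were called in some. Over all rows, the 173 called in aHFSC against tHFSC were 47 without the variance trend, 309 with unpaired groups, 111 without the pair of arrays that stood apart, 0 within slide 1, 4 within slide 2 and 0 to 207 with 1 array left out. The 2030 in tHFSC against IFE were 962 with the comparison's arrays, 795 within slide 2 and 837 to 2772 with 1 array left out, and the 1356 in aHFSC against IFE were 559 with the comparison's arrays, 607 within slide 2, 660 with unpaired groups, 2267 with normexp correction, 796 without the pair that stood apart, and 531 to 1766. The cause was not tested. Quantile normalization moved the median of all rows in aHFSC against IFE from -0.14 to 0.01. Slide could not be fitted as a block beside condition, which is nested in it. A fit of cell type and slide, without condition, left the Grem1, Ltbp1, Fst and Tgfb3 calls in place and lost Tgfbr2 (adjusted p = 0.115). Pairs were set by condition, since every group has 1 array and replicate numbers pair nothing. Signal near background limits Inhba and Tgfb1.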
